A study of Mus musculus with 68 samples.

Results

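Collagens and the proteins that modify, cross-link and accompany them form the matrix that fibroblasts secrete. The 45 genes described here were taken from a list of collagen chains, elastic fibre proteins, lysyl oxidases, procollagen-modifying enzymes of the endoplasmic reticulum (ER), small proteoglycans and matricellular proteins, and all 45 were found among the 13197 genes of the founder tables and the 12803 genes of the F1 tables. RNA of mouse embryonic fibroblasts (MEFs) was sequenced after 4 h in 2 ug/ml of tunicamycin (TM) or in 0.1% DMSO (control). TM blocks N-linked glycosylation, so that glycoproteins misfold in the ER. Founder MEFs came from the inbred strains 129S1Sv/ImJ (129), CAST/EiJ (CAST), A/J (A), WSB/EiJ (WSB), C57BL/6J (B6), PWK/PhJ (PWK), NZO/H1LtJ (NZO) and NOD/ShiLtJ (NOD), with 18 control and 22 TM libraries. F1 MEFs came from B6 mothers and fathers of 129, CAST, NOD, NZO or WSB (x129, xCAST, xNOD, xNZO and xWSB), with 14 control and 14 TM libraries. The MEFs of a genotype were a mix of cells from several female embryos of 1 litter, frozen at low passage, and a genotype had 2 or 3 libraries per treatment, so p-values measure the spread between culture wells of 1 preparation. Levels between genotypes therefore differ by strain and by preparation, which cannot be told apart.

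A procollagen chain is made at the ER, where prolyl hydroxylases (the P4ha subunits) and lysyl hydroxylases (the Plod enzymes) modify it and the chaperone Serpinh1 binds the folded triple helix. After secretion the chains assemble into fibrils (types I, III, V and XI), into basement membrane networks (type IV) or into beaded filaments and fibril coats (types VI, XII, XIV and XVI), and lysyl oxidases cross-link them. Fibronectin (Fn1) and the fibrillins (Fbn1 and Fbn2) form the scaffold on which other matrix is laid down. When unfolded protein accumulates in the ER, cells raise chaperones and stress factors and can lower the load of secretory mRNA.

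The libraries held 7091923 to 21530282 reads on genes in the founder set and 6442976 to 29528457 in the F1 set, where reads could be recovered. Values are given as RPM, the reads of a gene relative to the scaled library size, and were not divided by gene length. The stress itself was present in both sets, where 10 of 10 genes of the unfolded protein response rose, with a median log2 change of 2.31 in the founders and 2.26 in the F1 crosses. The summed value of 9 fibroblast markers was 8380 to 13500 in founder control libraries and 7020 to 12100 with TM. Cartilage markers were also measured, with a sum of 56.9 to 629 in founder controls and 53 to 464 with TM. Epithelial markers (4 measured, led by Krt18) summed to 4.91 to 80.7 in founder controls and 3.22 to 76.4 with TM. The 2 WSB controls differed in that sum (5 and 46.4). The sum of 5 smooth muscle markers, led by Acta2, was 12800 to 18000 in founder controls and 11000 to 23400 with TM. Of 5 endothelial markers 3 averaged under 1 (Pecam1, Tek and Emcn), with a sum of 3.13 to 19.9 in founder controls and 1.67 to 11.9 with TM, and of 7 myeloid markers 4 did, Ptprc among them (7.65 to 59.7 and 5.73 to 43.6). The part of these cells in the changes was not tested. The libraries also differed in how long transcripts were represented. Among the 10% of genes with the longest transcripts (6938 bases or more in the founder set), the median log2 change with TM was -0.56 in WSB and -0.60 in xNOD, but 0.11 in CAST and 0.10 in NOD. Replicates differed in this too. Relative to the mean of the other controls of the same strain, the median of these genes was -0.65 in TM replicate 1 of 129 and 0.23 in TM replicate 3, and -0.49 in control replicate 1 of A. The members are long, with a median transcript of 5316 bases against 3452 over all genes, and have more GC (52.6% against 49.8%). Counts with TM are therefore given as fitted and after each library's trend over transcript length and GC content was removed, which is called the correction. In the mean over the founder strains, the median change was -0.12 for the longest and -0.10 for the shortest 10% of genes. In the F1 crosses these were -0.22 and 0.01. Whether the trends came from the libraries or from the response to TM was not tested, and the correction removes both.

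With TM, 21 of the 45 matrix genes were lowered and 1 was raised over the mean of the 8 founder strains (limma, Benjamini-Hochberg adjusted p below 0.01 over all genes). Of all 13197 genes tested, 21.9% were lowered and 20.5% raised, against 46.7% of the members lowered. The median log2 change was -0.28 over the members and -0.04 over all genes. After the length and GC correction 12 members (26.7%) were lowered and 3 raised, with 20.6% of all genes lowered and 18.5% raised, and 9 members were lowered both before and after it. Without WSB, 15 members were lowered, against 19.7% of all genes. In the F1 crosses 14 of 45 members (31.1%) were lowered and 2 raised, where 18.7% of 12803 genes were lowered and 16.9% raised. The correction left 12 lowered and 2 raised, with 19.8% of all genes lowered and 16.5% raised, and leaving out xNOD left 9 lowered and 1 raised, with 12.8% of all genes lowered. Changes were small: 2 members in the founders and 5 in the F1 crosses were lowered by at least 1.5 fold, and none was raised by that much. The share of all genes past that fold in these means was not counted. The lysyl oxidase-like genes Loxl1 and Loxl3, the collagen VI chain Col6a3, the lysyl hydroxylase Plod1 and the proteoglycan biglycan (Bgn) were lowered in both sets, with and without the correction.

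**Figure D1:**
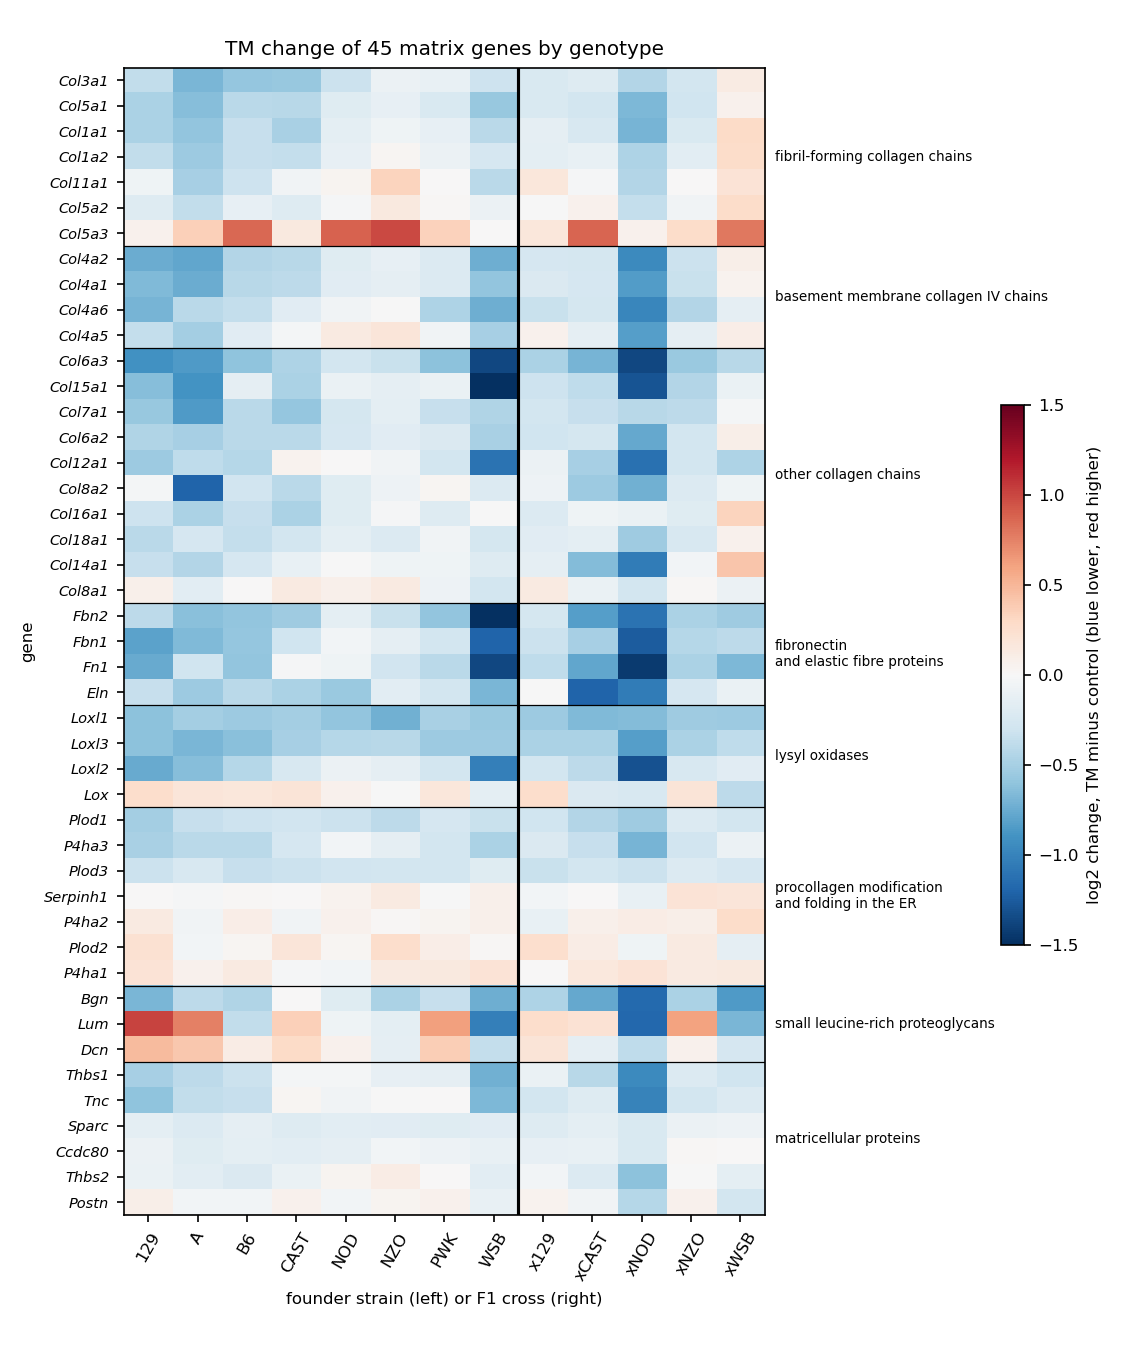
Log2 change with TM (color, blue lower and red higher, from -1.5 to 1.5) of the 45 matrix genes (rows, grouped by role) in each founder strain and F1 cross (columns), from 1 fit per set. Loxl1 and Loxl3 were below 0 in all 13 genotypes, the darkest columns were WSB and xNOD, and Col5a3 was the only founder member raised past the threshold.

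**Figure D2:**
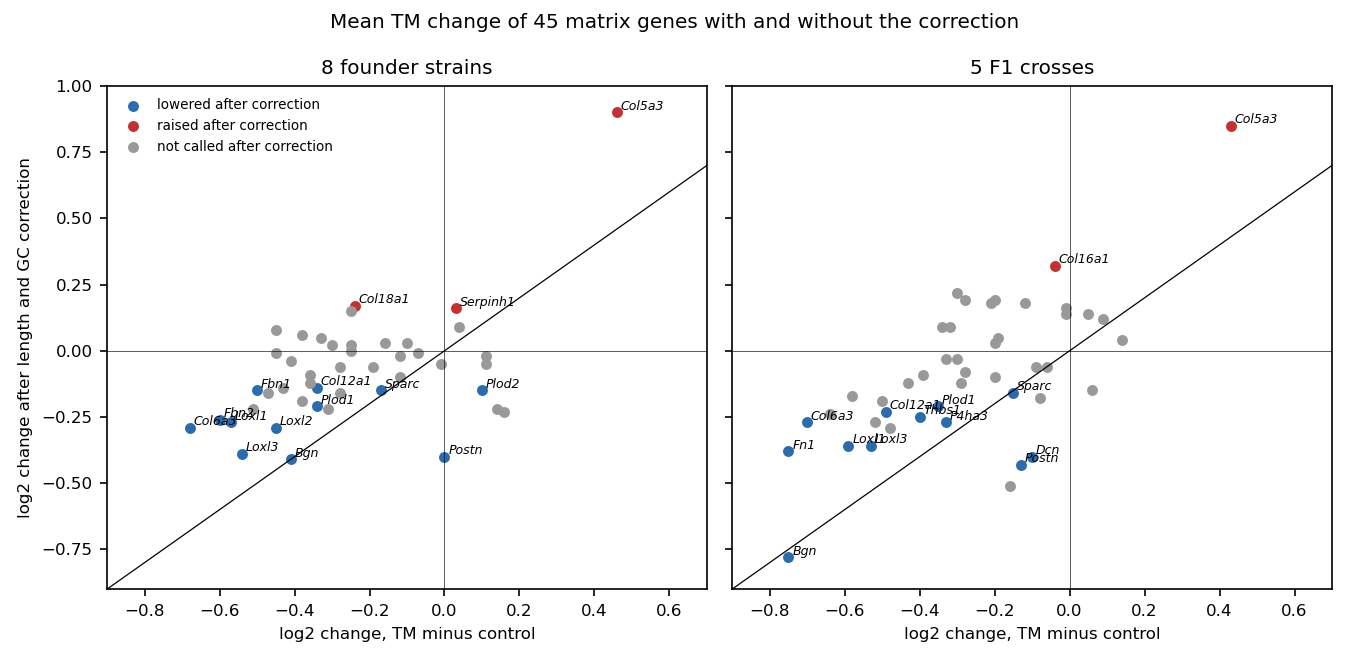
Mean log2 change with TM of each member as fitted (x axis) and after each library's trend over transcript length and GC was removed (y axis), in the founder strains (left) and F1 crosses (right). The line marks equal values, and colors mark the calls after the correction: 12 lowered and 3 raised in the founders, 12 lowered and 2 raised in the F1 crosses.

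Of the 4 lysyl oxidases, 3 were lowered in the founders and 2 in the F1 crosses, with the same counts after the correction. Loxl1, an enzyme that cross-links elastin, had 298.6 to 746.1 RPM (median 525.2) in the 18 founder controls and 209.8 to 474.9 (median 333.1) in the 22 TM libraries. In each of the 8 strains every TM library lay below every control. By strain, such separation was seen for between 8 members (A) and 32 (B6). The share of all genes that separated was not counted, for Loxl1 or for the members described below. The mean log2 change was -0.57 ± 0.05 (SE; adjusted p = 6.1e-11, limma), from -0.49 in PWK to -0.72 in NZO. After the correction it was -0.27 (adjusted p = 0.0002). Loxl1 in the F1 crosses fell by 0.59 on the log2 scale, and TM and control libraries did not overlap in 4 of 5 crosses.

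Loxl3, another member of that family, also separated in all 8 strains. Its control values ran from 100.9 to 504.3 (median 243.6) and its TM values from 74.22 to 395.9 (median 170). In WSB, for example, the controls had 459.7 and 477.5 and the TM libraries 279.4, 297.2 and 395.9. The mean log2 change of Loxl3 was -0.54 ± 0.05 (adjusted p = 1.3e-09), -0.39 after the correction (adjusted p = 3e-09), and -0.53 in the F1 crosses. Loxl2 was lowered in the founders as well (log2 change -0.45, adjusted p = 0.0017) but ranged from -0.09 in NOD to -1.03 in WSB. Lox, the founding enzyme of the family, had log2 changes of 0.11 in the founders (adjusted p = 0.41) and -0.08 in the F1 crosses (adjusted p = 0.52), neither past the threshold.

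The collagen VI chains make the beaded microfibrils around cells. Col6a3 showed the lowest mean change of all members in the founders. It had 306.4 to 1358 (median 787.5) in the controls and 155.3 to 957.2 (median 493.3) with TM, without overlap in 7 of 8 strains. WSB went from 1276 and 1358 in the controls to 409.5, 498.8 and 653.9 with TM. CAST went from 306.4 and 388.7 to 238.9 and 262.7. The mean log2 change was -0.68 ± 0.12 (adjusted p = 1.5e-05), and -0.29 after the correction (adjusted p = 3e-05). The F1 mean was -0.70 (adjusted p = 9.8e-05), with -1.36 in xNOD and -0.42 in xWSB. Col6a2, which joins it in the same filament, was lowered by 0.36 in the founders and by 0.30 in the F1 crosses, but had -0.12 (adjusted p = 0.13) and -0.03 (adjusted p = 0.69) after the correction.

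Of the elastic fibre proteins and fibronectin, 3 of 4 were lowered in each set, and 2 in the founders and 1 in the F1 crosses after the correction. Fn1 had 5204 to 18760 (median 12440) in the founder controls and 2545 to 18060 (median 8700) with TM. WSB fell from 17820 and 17710 to 6040, 7240 and 7655, whereas CAST had 8385 and 12360 in its controls and 9660 and 10420 with TM. The founder mean was -0.47 ± 0.13 (adjusted p = 0.0037), -0.16 after the correction (adjusted p = 0.079) and -0.35 without WSB (adjusted p = 0.057). Among the crosses, Fn1 fell by 0.75 (adjusted p = 2.3e-06) and by 0.38 after the correction (adjusted p = 1.1e-05), and was below 0 in 5 of 5 crosses. The xNOD controls had 7509, 8282 and 8450, and its TM libraries 2601 and 3397.

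Fbn2, a fibrillin of embryonic microfibrils, fell from a median of 21.02 (7.075 to 33.69) in the controls to 14.57 (4.926 to 30.02) with TM, a mean log2 change of -0.60 ± 0.12 (adjusted p = 7.3e-05). WSB had -1.63 and NOD -0.15. After the correction the change of Fbn2 was -0.26 (adjusted p = 0.00071) in the founders and -0.24 (adjusted p = 0.033) in the F1 crosses. Fbn1 was lowered by 0.50 in the founders and by 0.58 in the F1 crosses, with -0.15 (adjusted p = 0.0075) and -0.17 (adjusted p = 0.05) after the correction. Elastin (Eln) had -0.43 (adjusted p = 0.021) and -0.52 (adjusted p = 0.02).

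Of the 7 fibril-forming collagens, 2 were lowered and 1 was raised in the founders and 0 and 1 in the F1 crosses, and after the correction 0 were lowered and 1 was raised in each set. Col1a1 and Col1a2 had the highest founder control levels per kilobase of all collagen members (1410 and 992). Col1a1, which encodes the major chain of type I collagen, had 3982 to 20240 (median 8186) in the founder controls and 2955 to 14870 (median 5307) with TM. Its mean log2 change was -0.33 ± 0.11 (adjusted p = 0.013) and it was below 0 in 8 of 8 strains, but the libraries separated in 3 of them. After the correction it was 0.05 (adjusted p = 0.67), and in the F1 crosses -0.20 (adjusted p = 0.22). Col1a2, its partner chain, had 2364 to 11640 (median 5036) and 1873 to 11200 (median 3716), a change of -0.25 ± 0.10 (adjusted p = 0.029). Control replicate 1 of A held the highest value of both chains, 20240 for Col1a1 against 9429 and 9623 in the other A controls, while its Fn1 was low (5204 against 12510 and 12110).

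Col3a1, the type III chain of extensible tissues, was lowered by 0.38 ± 0.09 in the founders (adjusted p = 0.0008), from a control median of 873.1 (371.8 to 2714) to 627.5 (263.6 to 2735). TM libraries lay below all controls in 5 of 8 strains. After the correction its change was -0.19 (adjusted p = 0.072), and the F1 crosses had -0.20 (adjusted p = 0.13). Col5a1 was lowered by 0.38 in the founders but had 0.06 after the correction (adjusted p = 0.55). Col5a2 and Col11a1 did not pass, with -0.10 (adjusted p = 0.38) and -0.12 (adjusted p = 0.35).

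Col5a3, a minor type V chain, was the 1 member raised in the founders. In B6 it had 60.69 and 40.01 in the controls and 99.21 and 81.32 with TM. In NOD it had 28.87 and 41.12 against 64.7, 71.61 and 55.14, and in NZO 44.4 and 45.49 against 72.66, 76.6 and 128.5. The log2 changes were 0.86, 0.88 and 0.99 in these strains, 0.06 in 129 and 0.01 in WSB. The founder mean was 0.46 ± 0.11 (adjusted p = 0.00072) and the F1 mean 0.43 ± 0.12 (adjusted p = 0.0041), with 0.87 in xCAST and 0.79 in xWSB, and it was not past the threshold without control replicate 3 of xCAST. After the correction the means were 0.90 (adjusted p = 6.1e-11) and 0.85 (adjusted p = 3.8e-09), above 0 in each of the 13 genotypes. The transcript of Col5a3 has 6119 bases and 61.6% GC.

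The promoter window of Col5a3 is shown because it is the raised collagen gene. It covers 250 bases before to 50 after the annotated start on the minus strand, chr9:20815018-20815317 (GRCm38.p6, RefSeq). Capitals mark a CCAAT box (CCAAT on either strand) and GC boxes (GGGCGG on either strand).
Col5a3: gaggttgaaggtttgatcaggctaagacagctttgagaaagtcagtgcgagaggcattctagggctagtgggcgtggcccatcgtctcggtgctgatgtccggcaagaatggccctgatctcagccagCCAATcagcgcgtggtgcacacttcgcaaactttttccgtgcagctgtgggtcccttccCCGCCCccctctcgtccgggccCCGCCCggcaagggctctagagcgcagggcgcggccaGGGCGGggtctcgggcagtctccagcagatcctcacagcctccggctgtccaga
The CCAAT box begins 122 bases before the start and the GC boxes 63, 41 and 4 bases before it. Among the 29 members with a promoter in the RefSeq table, 12 (41.4%) held a CCAAT box and 22 (75.9%) a GC box, against 37.4% and 35.7% of all 32851 promoters. Each member was counted with a single window, whereas the 32851 were all windows of that table, not limited to the genes measured here. The share among promoters of the measured genes was not counted. A TATA box (TATAAA) was found in 5 members (17.2%, against 13.6%). No member window held the AP-1 site TGANTCA, found in 7.81% of all windows, or the ER stress element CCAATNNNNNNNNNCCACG, found in 0.119%. A match of letters describes the window and is not a measured binding site.

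The network-forming collagen IV chains of basement membranes are encoded in pairs of neighbouring genes read in opposite directions. The starts of Col4a1 and Col4a2 lie 21 bases apart on chromosome 8, so that the window of Col4a2 (plus strand, chr8:11312555-11312854, GRCm38.p6) holds both starts.
Col4a2: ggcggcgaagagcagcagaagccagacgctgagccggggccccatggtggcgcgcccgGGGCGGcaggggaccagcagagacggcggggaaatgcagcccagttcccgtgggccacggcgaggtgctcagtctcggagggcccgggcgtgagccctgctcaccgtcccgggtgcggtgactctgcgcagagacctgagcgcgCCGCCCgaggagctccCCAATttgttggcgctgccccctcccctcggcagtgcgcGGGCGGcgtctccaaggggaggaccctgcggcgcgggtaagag
Its capitals mark a CCAAT box that begins 32 bases before the start of Col4a2 and GC boxes at 192 and 48 bases before and 7 bases after it. Col4a1 had 1223 to 4407 (median 2353) in the founder controls and 903.5 to 4148 (median 1694) with TM, and Col4a2 had 768.3 to 3605 (median 1746) and 549.7 to 2461 (median 1261). Their mean log2 changes were alike, -0.41 (adjusted p = 0.00069) and -0.45 (adjusted p = 0.00071), each between -0.12 and -0.78 in every strain. After the correction they were -0.04 (adjusted p = 0.69) and -0.01 (adjusted p = 0.88). Their F1 changes were -0.32 (adjusted p = 0.049) and -0.34 (adjusted p = 0.043), short of the threshold. Col4a6 was lowered by 0.36 in the founders (adjusted p = 0.0095) and had -0.09 after the correction (adjusted p = 0.37), and Col4a5 had -0.16 (adjusted p = 0.17).

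As fitted, the other collagen chains were below 0 in 10 of 10 cases in each set. Of them, 5 were lowered in the founders and 3 in the F1 crosses. Of all genes, 7205 of 13197 were below 0 in the founders and 6995 of 12803 in the F1 crosses. After the correction 2 of the 10 chains were lowered and 1 was raised in each set. Col7a1 (0.08), Col8a2 (0.02), Col16a1 (0.15) and Col18a1 (0.17) were then above 0 in the founders, and the other chains below 0. Col15a1, a chain at the border of basement membrane and tissue, had 4.862 to 35.86 (median 11.92) in the founder controls and 4.285 to 21.51 (median 9.186) with TM, a change of -0.51 ± 0.14 (adjusted p = 0.002). Its control values in WSB were 35.86 and 6.911, so the -1.63 of that strain rests on 1 control library, and after the correction the mean was -0.22 (adjusted p = 0.11). Col12a1, a fibril-associated chain, had -0.34 (adjusted p = 0.019) in the founders and fell by 0.49 in the F1 crosses (adjusted p = 0.0017). After the correction it was lowered in both, by 0.14 and 0.23. Col18a1, the source of endostatin, was lowered by 0.24 (adjusted p = 0.0069) but had 0.17 after the correction (adjusted p = 0.0083), a reversal of its direction. Col7a1 was lowered by 0.45 in the founders and had 0.08 after the correction (adjusted p = 0.57). Col8a1, Col8a2, Col14a1 and Col16a1 did not pass in either set as fitted, with founder changes of -0.01, -0.30, -0.19 and -0.25, and Col16a1 was raised by 0.32 in the F1 crosses after the correction (adjusted p = 0.0038).

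The procollagen enzymes of the ER divided by gene. Plod1, a lysyl hydroxylase, was lowered in each strain without overlap, from 62.56 to 151.9 (median 108.1) in the controls to 51.64 to 125.4 (median 82.12) with TM. Its log2 change was -0.34 ± 0.04 (adjusted p = 4.1e-08) in the founders and -0.35 (adjusted p = 1.1e-06) in the F1 crosses, and after the correction -0.21 in both (adjusted p = 3.3e-05 and 0.00058). Plod3 fell by 0.28 in each set and P4ha3 by 0.31 and 0.33. After the correction Plod3 had -0.06 (adjusted p = 0.062) and -0.08 (adjusted p = 0.07), and P4ha3 remained lowered in the F1 crosses only (-0.27, adjusted p = 0.0056). P4ha1, a catalytic subunit of prolyl 4-hydroxylase, had 0.11 (adjusted p = 0.026) in the founders and rose by 0.14 in the F1 crosses (adjusted p = 0.0092), where TM libraries lay above all controls in 4 of 5 crosses, but had 0.04 there after the correction (adjusted p = 0.44). Serpinh1, the collagen chaperone, had 1206 to 2653 (median 1696) in the controls and 1232 to 2549 (median 1682) with TM, a change of 0.03 (adjusted p = 0.58), and 0.16 after the correction (adjusted p = 0.0011). P4ha2 and Plod2 did not pass in either set as fitted, and after the correction Plod2 was lowered by 0.15 in the founders (adjusted p = 0.0016).

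Among proteoglycans and matricellular proteins, Bgn had the clearest change in the F1 crosses. Its values fell from 2541 to 4065 (median 2750) in the controls to 1201 to 2424 (median 1872) with TM, without overlap in 5 of 5 crosses. The log2 change was -0.75 ± 0.07 (adjusted p = 1.9e-08) and -0.78 after the correction. In the founders Bgn had -0.41 ± 0.11 (adjusted p = 0.0022), and -0.41 after the correction, with -0.73 in WSB and 0.01 in CAST. Sparc, a collagen-binding glycoprotein, fell by 0.17 ± 0.04 in the founders (adjusted p = 0.0014), between -0.14 and -0.20 in every strain. Thbs1 and Tnc were lowered in the F1 crosses, by 0.40 and 0.39, and after the correction Thbs1 had -0.25 (adjusted p = 0.003) and Tnc -0.09 (adjusted p = 0.1). Periostin (Postn) had 0.00 in the founders as fitted (adjusted p = 0.98) and was lowered by 0.40 after the correction (adjusted p = 4.7e-09). Its GC content of 36.3% is the lowest of all members. The small proteoglycans Dcn and Lum, neighbours on chromosome 10, did not pass in either set as fitted, and after the correction Dcn was lowered by 0.40 in the F1 crosses (adjusted p = 0.0031). Thbs2 and Ccdc80 had founder changes of -0.07 and -0.12, short of the threshold.

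**Figure D3:**
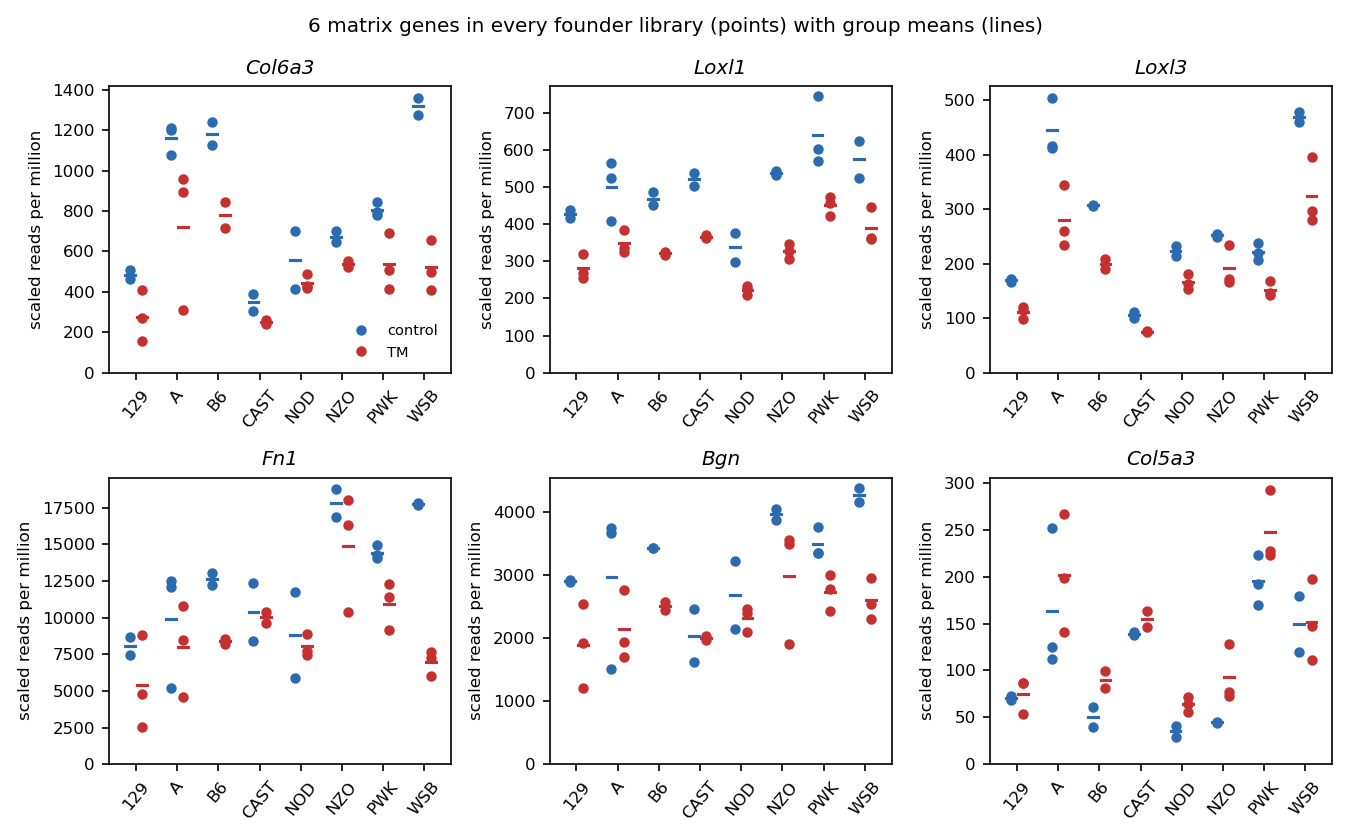
Values of Col6a3, Loxl1, Loxl3, Fn1, Bgn and Col5a3 (RPM of the scaled library, linear axis from 0) in every founder library, controls in blue and TM in red, with group means as lines. Loxl1 and Loxl3 separated in all 8 strains, Fn1 in 3, and Col5a3 rose most in B6, NOD and NZO.

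Within single genotypes, with a change of at least 1.5 fold as well, 10 members (22.2%) were lowered in at least 1 founder strain, against 7.85% of all genes tested. They were called in WSB (9 members, where 4.2% of genes were lowered), B6 (4, 3.22%) and PWK (1, 4.3%). Col6a3 was called in all of these 3 strains, and Fn1 and Fbn2 in B6 and WSB. Of the members, 1 was raised, Col5a3 in B6, against 8.15% of all genes. After the correction 3 members were lowered, Fn1, Loxl2 and Bgn in WSB, against 4.91% of all genes, and Col5a3 was raised, in B6, NOD, PWK and WSB, against 7.41%. Without TM replicate 2 of WSB, 6 members were lowered, and without control replicate 3 of B6 Col5a3 was not called. Among the crosses, 7 members (15.6%) were lowered, all in xNOD, against 5.47% of all genes, and the median change of the members there was -0.67. That count was 0 without control replicate 1 of xNOD, and leaving out its TM replicate 2 left 1 TM library. Relative to the controls, the median log2 difference of the members was -1.02 in TM replicate 1 of xNOD and -0.32 in TM replicate 2. No member was raised in a cross by limma, against 7.05% of all genes, and 1 was at an unadjusted p below 0.05, where the share of all genes was not counted. After the correction 1 member was lowered, Bgn in xNOD, against 1.93% of all genes, and 1 raised, Col5a3 in xCAST, against 4.71%.

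The difference between strains in the response was not past the threshold for any member. The strain by treatment interaction was called for 0 of 45 members (limma and edgeR), against 0.174% of all genes in the founders and 0.0547% in the F1 crosses. At an unadjusted p below 0.05, there were 0 such members in the founders and 2 in the F1 crosses, Fn1 and Bgn (adjusted p = 0.78 for both, limma). The share of all genes at that unadjusted p was not counted, so the 2 cannot be set against it. The smallest founder p-values were those of Col15a1, Fbn2 and Lum, each with an adjusted p = 1 (limma). With the ratio of each TM library to the median control tested over strains, the form the study used, Col15a1 was called (adjusted p = 0.0099), where 2.62% of all genes were called. Its WSB values are those given above. The fit without control replicate 3 of WSB left the 35.86 as the only control of that strain, so the interaction of Col15a1 in that fit rests on that library. In 129 Lum had 0.6315 and 0.737 in the controls and 1.773, 1.509 and 1.194 with TM, and it had 7.321 and 2.941 against 3.317, 2.221 and 1.513 in WSB, which rest on 9 to 59 reads in the control libraries. TM libraries lay above all controls in 1 strain and below all controls in another for 2 members, Col11a1 and Thbs2, against 16.7% of all genes in the founders. Among the crosses, this held for 0 members, against 4.98% of genes.

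Basal levels differed among the founder strains for 34 of 45 members (75.6%), against 37.2% of all genes. Among the crosses, they differed for 23 members (51.1%), against 24.8%, and 21 members differed in both sets. The control mean was lowest in CAST for 16 members and in NOD for 14, and highest in PWK for 18 and in WSB for 12. Per kilobase of transcript, Thbs1 had the highest control level in the founders (2660), followed by Fn1 (1500), Col1a1 (1410) and Sparc (1340), and Lum the lowest (0.785).

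P4ha3, a prolyl hydroxylase subunit, had the smallest p-value (adjusted p = 8.5e-14). Its control mean was 26.3 ± 4.42 (SD, n = 2) in NOD, 31.5 ± 6.21 (n = 2) in CAST and 45.6 ± 0.0327 (n = 2) in WSB. It was between 119.5 and 127.2 in A, 129 and B6, 186.8 in NZO and 201.7 ± 7.31 (n = 3) in PWK. The control libraries of NOD (23.14 and 29.39) and CAST (27.14 and 35.91) overlapped, and the PWK mean was 7.68 times as high as that of NOD. Ccdc80, a secreted matrix protein (adjusted p = 1.8e-13), formed a low group of NOD (223.2), 129 (251.4) and NZO (266.1) and a high group of CAST (658.7), A (671.1) and WSB (692.7), with B6 (402.8) and PWK (450.2) between them. Col18a1 (adjusted p = 7.3e-13) went from 32.2 ± 6.23 (n = 2) in WSB and 39.2 in CAST to 195.7 in NOD and 303.9 ± 40.01 (n = 3) in PWK. Its F1 level was lowest in xWSB as well (8.44 ± 0.92, n = 3) and highest in x129 (63.2). Loxl3 (adjusted p = 2.4e-11) was lowest in CAST (106.4) and highest in WSB (468.6) and A (444.4). Tnc, a matrix protein of tissue remodelling, was 1115 in CAST, 1567 in PWK and 7800 in 129.

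Col4a6 was nearly absent from 1 strain. The A controls had 0.2693, 0.7291 and 0.4536, which rest on 3 to 8 reads, and the mean of 0.484 ± 0.231 (n = 3) compares with 7.20 to 13.8 in the other strains (adjusted p = 5.1e-13). TM libraries of A had 0.513, 0.1045 and 0.4936. Its neighbour Col4a5, whose start lies 1343 bases away on the X chromosome and points the other way, had 265.6, 197.4 and 210.3 in the same A controls and did not differ among strains (adjusted p = 0.29). The windows of both genes are shown because the levels of the pair came apart in A. Col4a5 is on the plus strand, chrX:141475169-141475468, and Col4a6 on the minus strand, chrX:141474027-141474326 (GRCm38.p6, the reference and not the sequence of A).
Col4a5: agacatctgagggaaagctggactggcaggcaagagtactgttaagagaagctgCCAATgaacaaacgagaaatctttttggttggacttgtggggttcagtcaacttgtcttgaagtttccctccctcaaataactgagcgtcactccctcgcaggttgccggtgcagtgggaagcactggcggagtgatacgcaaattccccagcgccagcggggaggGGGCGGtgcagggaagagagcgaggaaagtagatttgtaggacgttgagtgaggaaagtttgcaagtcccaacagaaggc
Col4a6: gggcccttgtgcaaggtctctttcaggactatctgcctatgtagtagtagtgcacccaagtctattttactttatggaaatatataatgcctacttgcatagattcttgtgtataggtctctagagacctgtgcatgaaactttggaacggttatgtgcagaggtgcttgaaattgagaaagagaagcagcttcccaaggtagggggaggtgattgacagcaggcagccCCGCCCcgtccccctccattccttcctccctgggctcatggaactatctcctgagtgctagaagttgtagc
Capitals mark a CCAAT box 196 bases and a GC box 30 bases before the start of Col4a5, and a GC box 21 bases before that of Col4a6. Among the crosses, Col4a6 ran from 4.46 in xCAST to 21.04 in xWSB (adjusted p = 2.6e-06).

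Col3a1 was 426.4 in B6 and 2432 ± 245.1 (n = 3) in PWK. Col14a1, a fibril-associated chain, was 3.55 in WSB and 36.5 in NOD. Col11a1, a fibril chain of cartilage, was 28.9 in NOD and 253.6 ± 100.2 (n = 3) in A. The sum of the cartilage markers was 56.9 to 93.1 in the NOD controls, 350 to 605 in A and 628 to 629 in CAST, where Col11a1 was 94.6, and their part in the level of Col11a1 was not tested. In bulk RNA, a smaller share of cells and less RNA per cell cannot be told apart.

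In the F1 crosses Dcn, a collagen-binding proteoglycan, gave the smallest basal p-value (adjusted p = 1.3e-11). It was 5.23 ± 0.669 (SD, n = 3) in x129, 7.76 in xCAST, 14.5 in xNZO, 25.1 ± 10.97 (n = 3) in xNOD and 119.1 ± 16.5 (n = 3) in xWSB. Fbn2 followed (adjusted p = 1.5e-09), with 3.01 ± 0.553 in xWSB and 26.9 ± 3.26 in xNZO. Eln was 0.81 ± 0.168 in xWSB and 6.02 to 22.8 elsewhere, where the xWSB controls held 7 to 9 reads each. P4ha2 was highest in xWSB (174.3), and between 72.2 and 85.6 in the other crosses. The sum of the cartilage markers was also lowest in xWSB controls (14.2 to 26.3) and highest in xCAST (583 to 660), and their part in these levels was not tested.

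**Figure D4:**
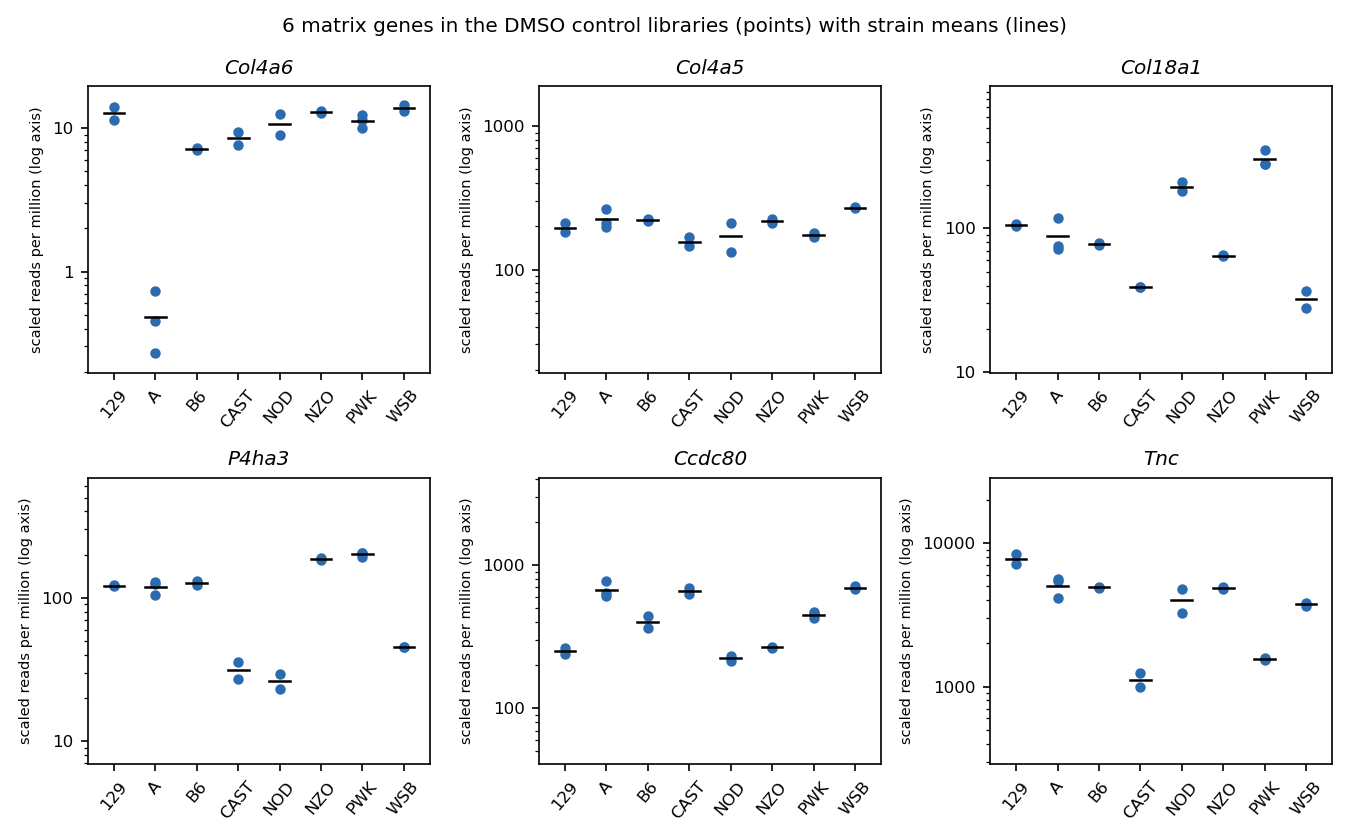
Control values (RPM of the scaled library, log axis) of Col4a6, Col4a5, Col18a1, P4ha3, Ccdc80 and Tnc in every founder control library (points), with strain means as lines. Each panel spans the same range of folds. Col4a6 was below 1 in all 3 A libraries and at least 7 in the other strains, while Col4a5 lay between 133.4 and 272.5 in all libraries.

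Genes that act on the same pathway but are not members were counted in the same fits, to be read against the 21.9% of all genes lowered and 20.5% raised in the founders. Of 23 genes of collagen folding and export, 5 were lowered and 7 raised in the founders, with a median log2 change of 0.05, and 5 and 4 after the correction. The lowest were Leprel4, a partner of lysyl hydroxylase (-0.84, adjusted p = 2.6e-15), and Crtap, part of the prolyl 3-hydroxylase complex (-0.36). The highest were Fam46a (0.93) and Ctage5, an export factor of the ER exit sites (0.58). Of 11 genes of procollagen processing, 6 were lowered and 0 raised in each set, and after the correction 4 and 1 in the founders and 3 and 1 in the F1 crosses. The lowest were Furin, a proprotein convertase, at -0.71 and -0.70, and Mrc2, a collagen uptake receptor, at -0.70 and -0.63, while Adamts14 and Tll1 had 0.01 and -0.01 in the founders. Of 61 other matrix proteins, 30 were lowered and 5 raised (median -0.29), led by the perlecan gene Hspg2 (-1.26) and the laminin chain Lama5 (-0.95), with Thbs4 (0.67) and Wisp1 (0.57) at the other end. After the correction 22 were lowered and 7 raised, with a median of -0.13. In the F1 crosses 29 of 59 were lowered and 2 raised, and 23 and 4 after the correction. Of 25 regulators of matrix and TGF-beta signalling, 9 were lowered and 5 raised in the founders, from Ski (-0.70, adjusted p = 0.00011) and Mkl2 (-0.70, adjusted p = 0.012) to Skil (0.50) and Pdgfb (1.34), and 9 and 7 after the correction. Within the unfolded protein response the changes ran from 0.81 for Calr and 1.18 for Xbp1 to 3.90 for Ddit3 and 4.30 for Herpud1.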

How the data were processed

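Single-end RNA-seq of MEFs was analysed from 13 tables, 1 per genotype. The authors aligned reads with TopHat 1.4.1 to strain-specific genomes (GRCm38/mm10 per the labels), scaled libraries across samples with TMM in edgeR, and removed libraries that clustered away from their condition. The deposited values are named FPKM, but all genes of a library share a single step size, so they are signal per gene, that is RPM of the scaled library, not divided by length. Within 0.05 reads, 100% of values gave whole reads in 66 of 68 libraries, and the other 2, whose step could not be told from the rounding, entered no read count. The tests had been designed for FPKM and were kept. The F1 tables hold 3 lines of unassigned reads (15.5 to 24.1% of the total), which were left out. The founder and F1 sets were scaled separately, so levels were compared only within a set.

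Values were tested as log2(value + 0.1) with limma 3.58.1 (R 4.3.3, eBayes with trend) over genes with at least 0.5 in at least 2 libraries, with 1 mean per genotype and treatment. Contrasts were the mean TM change, the interaction and the basal difference. Fold changes are on that scale and understate changes of low genes. Within a genotype, calls also needed 1.5 fold. The length and GC correction removed, per library, a spline trend (4 degrees of freedom each) over the longest GENCODE transcript and its GC. It, edgeR 4.0.16 on recovered reads and the fits without WSB or xNOD were chosen after seeing the data. All 45 members passed the filter in both sets. Named in full were Col1a1, Col1a2, Col3a1 and Fn1, the 5 most negative and up to 5 most positive called members, the 5 smallest basal and 3 smallest interaction p-values in the founders and the 2 smallest of each in the F1 crosses. Other genes named were chosen after their values were seen. Members and lists were chosen with earlier results of these data known. Scripts were tested on simulated data. By the correlation of their deviations, the replicate numbers did not pair the samples, except in NZO and xWSB.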

Additional observations from a re-analysis of the deposited data

Results flagged for a closer look

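Col11a1 and Thbs2 were looked at again because TM libraries lay above all controls in NZO and below all controls in other strains. Col11a1 had 173.5 and 171.7 in the NZO controls and 184.2, 194.3 and 284.8 with TM (log2 change 0.33), against -0.31 in B6, -0.05 in CAST and -0.40 in WSB, where every TM library was below the controls. NZO and WSB thus lay 0.73 apart. Thbs2 had 349.3 and 344.8 in the NZO controls and 367.4, 395.7 and 360.3 with TM (0.11), against -0.22 in B6 and -0.16 in WSB, and NZO and B6 lay 0.33 apart. These differences were not tested in choosing them, and the interaction over all strains had an adjusted p = 1 for both (limma). Such opposite changes were found for 16.7% of all genes.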

How the results depend on the processing

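Basal counts kept within 1.5 times of 34 (founders) and 23 (F1) under all alternatives run. With edgeR on recovered reads, 20 members were lowered and 1 raised in the founders, and 15 and 2 in the F1 crosses. Of all genes, 20.1% were lowered and 19.5% raised in the founders, and 19% and 17.3% in the F1 crosses. Median-of-ratios scaling gave 23 and 1, and 14 and 2, against 23.2% and 19.6%, and 18.7% and 16.8%, of all genes. It moved the all-gene median from -0.04 to -0.05 in the founders. Shares of all genes were not counted for an FDR of 5%, library weights, 1.5 fold in the means or fits without 1 library. For the alternatives within single genotypes, they were counted only with the correction and the block. In the founders, 12 members were lowered and 3 raised after the length and GC correction, and 2 and 0 with a change of at least 1.5 fold. At an FDR of 5% 2 were raised, and with library weights 3. Col18a1 reversed, to 0.17, under the correction. The study's form of the interaction test called 1. Within single strains, the 10 lowered became 6 with no filter, 0 with no trend in the prior variance and 3 after the correction, and the 1 raised became 0 with no trend and 2 at an FDR of 5%. In the F1 crosses the 14 lowered became 22 at an FDR of 5%, 5 with at least 1.5 fold and 9 without xNOD. The 2 raised became 1 with no trend (16.7% of all genes), 1 with library weights, 1 without xNOD (13.7%) and 0 with at least 1.5 fold. Within single crosses, the 7 lowered became 4 with no filter, 0 with no trend, 15 at an FDR of 5% and 1 after the correction, and the 0 raised became 1 at an FDR of 5% and 1 after the correction. The cause was not tested, except that stricter thresholds call fewer genes. The replicate numbers do not pair the samples, since 7 of 29 same-numbered pairs had a correlation over 0.1 (range -0.53 to 0.31). The exceptions are xWSB, where all 3 pairs were over 0.1 (0.26, 0.16 and 0.12), and NZO, where its 2 pairs were (0.19 and 0.22). In each of these genotypes 0 members were lowered or raised with and without the block. With the replicate block, 6 members were lowered in the founders and 0 raised in the F1 crosses, and within genotypes 5 and 12 were lowered. The share of all genes with the block was not counted for the means. Within genotypes, 5 were lowered in WSB (1.65% of genes) and 2 in PWK (4.76%). Among the crosses 12 were lowered in xNOD (8.31%) and 2 in xCAST (1.66%). That block could not be fitted where no residual degrees of freedom remained, and edgeR and library weights were not run within genotypes. Leaving out 1 library at a time gave 18 to 26 lowered, 1 to 2 raised and 0 to 1 with an interaction in the founders, and 6 to 13 lowered and 0 to 2 raised within strains. For the F1 crosses it gave 12 to 18 lowered, 0 to 2 raised, and 0 to 28 lowered and 0 to 1 raised within crosses. The count of 2 raised F1 members fell in 21 of 28 such fits. The highest count lowered within crosses came from the fit that left 1 TM library in xNOD, where the share of all genes was not counted. The 1 interaction in the founders came from the fit that left 1 control in WSB. Over all combinations of a named member and an alternative fit, the call was the same in 1431, lost in 71 and gained in 26. The 1431 include changes of sign where neither fit passed the threshold. An example was Col1a1 in the founders, with -0.33 as fitted and 0.05 after the correction.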
